A study of Mus musculus with 4 samples.

Results

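Messenger RNA decay from the 5′ end depends on a small set of proteins that remove the cap and degrade the body of the transcript, and 10 of their genes are described here: Dcp1a, Dcp1b, Dcp2, Edc3, Edc4, Lsm14a, Lsm14b, Patl1, Ddx6 and Xrn1. They were chosen by name, with earlier results of these data known. They were found by Ensembl identifier, through the GENCODE M21 annotation of GRCm38, among the 55364 genes of the deposited tables. All 10 were present and all 10 passed the filter on low counts. RNA sequencing was done on pachytene spermatocytes, which are germ cells at the pachytene stage of meiosis, enriched from mouse testis by elutriation. The wild-type group (WT) had 2 libraries, and the group labelled as homozygous for a DDX4 knock-in (KK) also had 2. Ddx4 encodes the germline RNA helicase of the germ granules, which are large RNA and protein bodies in the cytoplasm of these cells; the series title describes the mouse as a combinatorially tagged, multi-purpose knock-in made to study granules that form by phase separation. The sources used here give no age or strain of the mice and do not say whether replicate libraries came from different animals, so the p-values rest on the spread between these libraries, which may be technical.

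As background, DCP2 is the enzyme that cleaves the cap, and DCP1A and DCP1B are its activating partners. EDC3 and EDC4 are enhancers of decapping, and EDC4 is the scaffold that joins DCP1 and DCP2 into one complex. PATL1 links the LSm ring at the 3′ end to decapping. The helicase DDX6 represses translation and feeds transcripts to decapping, and LSM14A and LSM14B bind DDX6. XRN1 degrades the uncapped RNA from its 5′ end. Many of these proteins gather in P-bodies in somatic cells. In male germ cells several P-body proteins have also been found in the chromatoid body, the germ granule of late spermatocytes and spermatids.

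The libraries held 17970207 to 19438570 expected counts, the read numbers per gene estimated by the authors. The knock-in label sets no direction for the RNA of the targeted gene, whose level differed between the genotypes: Ddx4 stood at 265 and 273 TPM, a level scaled by transcript length and library, in WT and at 54.4 and 52.5 TPM in KK. Markers of the labelled cell type were abundant in every library, although 7 of 12 pachytene markers fell and 1 rose in the edgeR test used throughout, with a summed level of 12745 to 12763 CPM (counts scaled by library but not by length) in WT and 11709 to 11908 CPM in KK. Summed in TPM, these markers stood at 15240 and 15099 in WT and at 14766 and 14520 in KK. The round spermatid markers stood higher in TPM, at 17922 and 17742 in WT and 16540 and 15906 in KK. Leydig cell markers summed to 222 to 237 CPM in WT and 703 to 712 CPM in KK, with 7 of 8 risen. Of 10 spermatogonial markers 6 rose and 1 fell (summed 120 to 123 CPM in WT and 119 to 129 CPM in KK), of 8 round spermatid markers 4 rose and 3 fell (3527 to 3541 CPM and 3024 to 3143 CPM), and of 10 Sertoli cell markers 2 rose and 3 fell (163 CPM in both WT libraries and 199 to 201 CPM in KK). The spermatogonial sum does not show the 6 rises, because Id4, the marker that fell, held most of it. Mean Id4 went from 93.4 CPM (WT) to 70.1 CPM (KK), while the 6 that rose had means of 17.2 CPM or less. Among the Sertoli cell markers, Ptgds rose from a mean of 26.7 CPM (WT) to 71.9 CPM (KK). Among 8 markers of peritubular and endothelial cells, 6 of them tested, 3 rose and 0 fell (7.44 to 8.89 CPM and 11.9 to 13.4 CPM). Of 8 macrophage markers, 6 of them tested, 2 rose and 0 fell (5.22 to 5.73 CPM and 6.82 to 8.76 CPM). Beside these calls, 21.7% of all genes tested were called lower and 22.0% higher. No marker of these lists was at 0 in all 4 libraries. The part of these cell types in the results below was not tested, and in RNA from bulk cells fewer cells of a type and less RNA per cell cannot be told apart.

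Most of the decapping and P-body genes that changed were lower in KK. By edgeR's quasi-likelihood test, with an adjusted p under 0.05 over all 16571 genes tested, which called 43.7% of them, 5 of the 10 members fell (Ddx6, Dcp1a, Edc3, Edc4 and Lsm14b), 1 rose (Lsm14a) and 4 did not pass (Dcp1b, Dcp2, Patl1 and Xrn1). Over all genes tested 21.7% were called lower and 22.0% higher, and 50.4% of all calls were higher in KK, or 64.2% where libraries were scaled by size without TMM factors. In the members' own range of mean level, 2.79 to 268 CPM, 28.1% of 10747 genes were called lower and 23.3% higher. The median log2 fold change of the members was -0.23, beside 0.0033 over all genes tested and -0.05 over genes in that range. The levels of the 10 members added up to 301.35 and 308.30 TPM in WT and to 259.99 and 261.76 TPM in KK. Edc4 and Dcp1b held most of each sum, at means of 113.5 and 104.6 TPM in WT and 89.7 and 96.5 TPM in KK.

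**Figure D1:**
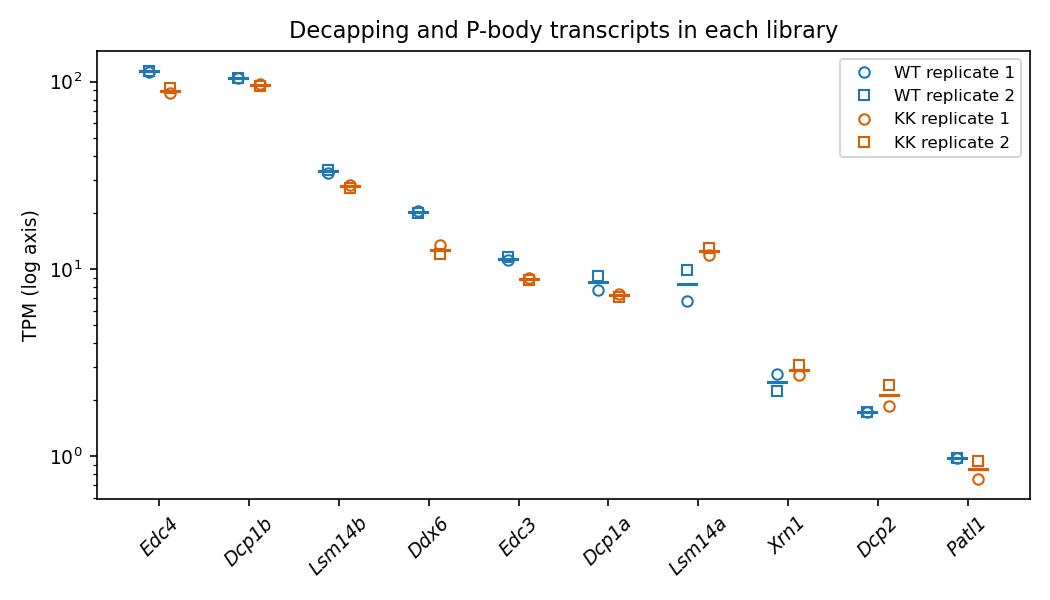
Level of each member in TPM on a log axis, with one symbol per library, WT in blue and KK in orange, and a short line at the mean of each genotype. The members span from about 1 TPM for Patl1 to 114 TPM for Edc4 in WT, and the genotypes separate most widely for Ddx6.

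On the TPM scale the order of the WT means was Edc4 (113.5), Dcp1b (104.6), Lsm14b (33.2), Ddx6 (20.1), Edc3 (11.4), Dcp1a (8.48), Lsm14a (8.32), Xrn1 (2.49), Dcp2 (1.73) and Patl1 (0.980). The ranges of the 2 WT libraries overlapped only for the neighbours Dcp1a and Lsm14a. The scaffold Edc4 and the DCP1 paralogue Dcp1b thus stood far above Dcp2, the gene of the catalytic subunit. In KK the order changed in 2 places. Dcp1b, at a mean of 96.5 TPM, stood above Edc4 at 89.7 TPM without overlap. Lsm14a, at a mean of 12.4 TPM, stood beside Ddx6 at 12.7 TPM with overlapping libraries, and above Edc3 at 8.87 TPM and Dcp1a at 7.25 TPM without overlap.

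Ddx6, the helicase gene (chr9:44604892-44640731, plus strand, GRCm38), had the largest decrease of the 10. It stood at 20.4 and 19.8 TPM in WT and at 13.4 and 12.0 TPM in KK. Both KK libraries lay below both WT libraries, by more than the distance between replicates. With 2 libraries per genotype, separation in TPM alone says little, and its share over all genes was not counted. The genotypes also separated in TPM for Dcp1b, Dcp2 and Patl1, which were not called. In normalised counts the mean ± SD of Ddx6 (n = 2 per genotype) was 90.0 ± 1.97 CPM for WT and 56.9 ± 4.49 CPM for KK. Its log2 fold change was -0.66 ± 0.06 (SE), 1.58-fold lower, with an edgeR adjusted p of 6.01e-10, and 4.2% of tested genes had a log2 fold change as low or lower. Ddx6 was called lower under each of the 14 alternative settings, with log2 fold changes between -0.76 and -0.52. Nearly all of its level was assigned to one coding isoform, Ddx6-203, at 91.3% or more of the transcripts in each library.

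Both enhancers of decapping fell. Edc4 (chr8:105880881-105894908, plus strand) stood at 113.1 and 114.0 TPM in WT and at 87.2 and 92.2 TPM in KK. Its genotypes did not overlap, and it was 1.25-fold lower (log2 fold change -0.32 ± 0.04 SE, edgeR adjusted p of 1.05e-07). Edc4 kept its call in all 14 alternative settings. Edc3 (chr9:57708540-57752499, plus strand) stood at 11.2 and 11.6 TPM in WT and at 8.97 and 8.77 TPM in KK, again without overlap. It was 1.27-fold lower (log2 fold change -0.34 ± 0.08 SE, edgeR adjusted p of 0.00119), and the call was lost with limma on log2(TPM + 1), at a log2 fold change of -0.32 and an adjusted p of 0.107. Edc3 shares 1284 exonic bases with Clk3, a kinase gene on the opposite strand, and the library kit does not mark strand, so reads there cannot be told apart. Clk3 stood at 50.6 to 57.9 TPM over the 4 libraries and did not pass (edgeR adjusted p of 0.243).

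The DCP1 paralogues differed in level and in their calls. Dcp1b (chr6:119175253-119221616, plus strand) had 104.32 and 104.95 TPM in WT and 97.7 and 95.3 TPM in KK. The genotypes did not overlap, but its log2 fold change of -0.10 ± 0.04 (SE) missed the threshold (edgeR adjusted p of 0.0575) and was not called under any of the 14 alternatives. Dcp1a (chr14:30479535-30527063, plus strand) had 7.73 and 9.22 TPM in WT and 7.39 and 7.11 TPM in KK. Its WT libraries lay further apart than the lower of them from the KK libraries. In counts the separation was wider, with a mean ± SD (n = 2 per genotype) of 22.1 ± 2.35 CPM for WT and 16.6 ± 1.75 CPM for KK, and the log2 fold change of -0.41 ± 0.11 (SE) passed (edgeR adjusted p of 0.00271). The Dcp1a call was lost without WT replicate 2 (adjusted p of 0.0711, log2 fold change -0.30), with an effective length offset (0.199, log2 fold change -0.24) and with limma on log2(TPM + 1) (0.377, log2 fold change -0.20). The ratio of Dcp1b to Dcp1a in TPM was 13.5 and 11.4 in WT and 13.2 and 13.4 in KK, so the genotypes overlapped (exact two-sided permutation p of 1.0; the smallest p that 2 against 2 libraries allow is 0.333). In expected counts the ratio was 7.34 and 6.19 in WT and 7.79 and 8.99 in KK, without overlap, and the difference in the mean log2 ratio was 0.31 against 0.10 in TPM (exact two-sided permutation p of 0.333).

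The LSM14 paralogues moved in opposite directions. Lsm14b (chr2:180024987-180035465, plus strand) stood at 32.4 and 34.0 TPM in WT and at 28.1 and 27.1 TPM in KK, and was 1.20-fold lower (log2 fold change -0.27 ± 0.07 SE, edgeR adjusted p of 0.00391). Lsm14a (chr7:34344646-34393315, minus strand) stood at 6.72 and 9.91 TPM in WT and at 11.9 and 13.0 TPM in KK, and was 1.42-fold higher (log2 fold change 0.51 ± 0.11 SE, edgeR adjusted p of 3.08e-04). Neither gene had overlapping genotypes. The expected counts of Lsm14a were closer within WT than the TPM, at 218 and 248 against 383 and 319 in KK. Its leading isoform, Lsm14a-201, took 79.5% and 44.9% of the transcripts in the WT libraries, and TPM depends on the lengths of the isoforms to which reads are assigned. Under limma on log2(TPM + 1) neither paralogue passed, although the log2 fold changes stayed near those above, at 0.55 for Lsm14a (adjusted p of 0.106) and -0.26 for Lsm14b (0.0576). An offset for effective length also ended the call of Lsm14a, at a log2 fold change of 0.57 (edgeR adjusted p of 0.0589). The ratio of Lsm14b to Lsm14a was 4.83 and 3.43 in WT and 2.37 and 2.09 in KK, a difference of -0.87 in the mean log2 ratio; every KK value lay below every WT value, and the exact two-sided permutation p of 0.333 is the smallest this design allows.

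The sequence before the RefSeq start of these 2 paralogues is shown because they were the pair whose members were called in opposite directions. Each line gives the 250 bases upstream, 5′ to 3′ on the gene's strand, from RefSeq on GRCm38.p6, with matches to 3 of the motifs searched (GC box, CCAAT box and NRF1) in capitals:
Lsm14a, chr7:34389706-34389955, minus strand: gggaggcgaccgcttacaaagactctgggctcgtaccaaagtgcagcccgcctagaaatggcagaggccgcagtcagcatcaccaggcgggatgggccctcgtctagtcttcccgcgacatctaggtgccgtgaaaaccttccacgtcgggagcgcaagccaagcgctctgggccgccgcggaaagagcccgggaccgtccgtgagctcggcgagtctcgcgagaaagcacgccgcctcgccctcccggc
Lsm14b, chr2:180024737-180024986, plus strand: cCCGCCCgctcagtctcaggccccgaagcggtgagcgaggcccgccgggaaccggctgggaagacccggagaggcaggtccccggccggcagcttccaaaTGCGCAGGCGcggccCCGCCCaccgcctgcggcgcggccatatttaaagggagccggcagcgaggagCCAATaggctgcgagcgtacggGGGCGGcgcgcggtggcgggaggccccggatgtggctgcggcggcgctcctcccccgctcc

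Both sequences were rich in G and C, at 66.4% for Lsm14a and 76.0% for Lsm14b. On either strand, the Lsm14b sequence held 3 matches to the GC box GGGCGG, 1 to CCAAT and 1 to the NRF1 motif, none of which overlap, and the Lsm14a sequence held 0 of each. The GC box letters occur in 32.7% of the 32851 RefSeq promoters of this length, CCAAT in 33.8% and the NRF1 motif in 2.58%. The MYB core AACNG, present in 74.2% of promoters, had 1 match in Lsm14b and 0 in Lsm14a, while the E-box CACGTG (6.02% of promoters) and the CRE TGACGTCA (1.55%) had 0 in both. A match is a string of letters and was not tested as a binding site. Of the 10 members, 8 were matched in the promoter table. For the GC box, CCAAT and NRF1, in this order, Dcp1a, called lower, and Dcp1b, not called, also held 0 of each. Patl1, not called, held 2, 1 and 1. Edc3, called lower, held 2, 0 and 0, and Edc4, called lower, held 0, 1 and 0. Xrn1, not called, held 1, 0 and 0. Any tie between these motifs and the calls was not tested.

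Dcp2, Patl1 and Xrn1, the least abundant members per length, did not pass. Dcp2, on chromosome 18, had 198, 209, 244 and 188 expected counts in WT replicates 1 and 2 and KK replicates 1 and 2, and a log2 fold change of -0.0004 ± 0.13 (SE; edgeR adjusted p of 0.998). Its TPM of 1.73 and 1.72 in WT and 1.86 and 2.40 in KK separate the genotypes only through a short isoform, Dcp2-202, which was given 1 expected count and 0.84 TPM in KK replicate 2; the long isoform alone stood at 1.73, 1.72, 1.86 and 1.56 TPM. Patl1 had 47 to 56 expected counts per library, and its log2 fold change of -0.19 ± 0.27 (SE; edgeR adjusted p of 0.597) was loosely bounded at this depth. Xrn1 had 326 and 287 counts in WT and 318 and 308 in KK, with a log2 fold change of -0.05 ± 0.11 (SE; edgeR adjusted p of 0.720). The signs for Dcp2 and Xrn1 varied between settings, with log2 fold changes from -0.15 to 0.28 and from -0.19 to 0.20.

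**Figure D2:**
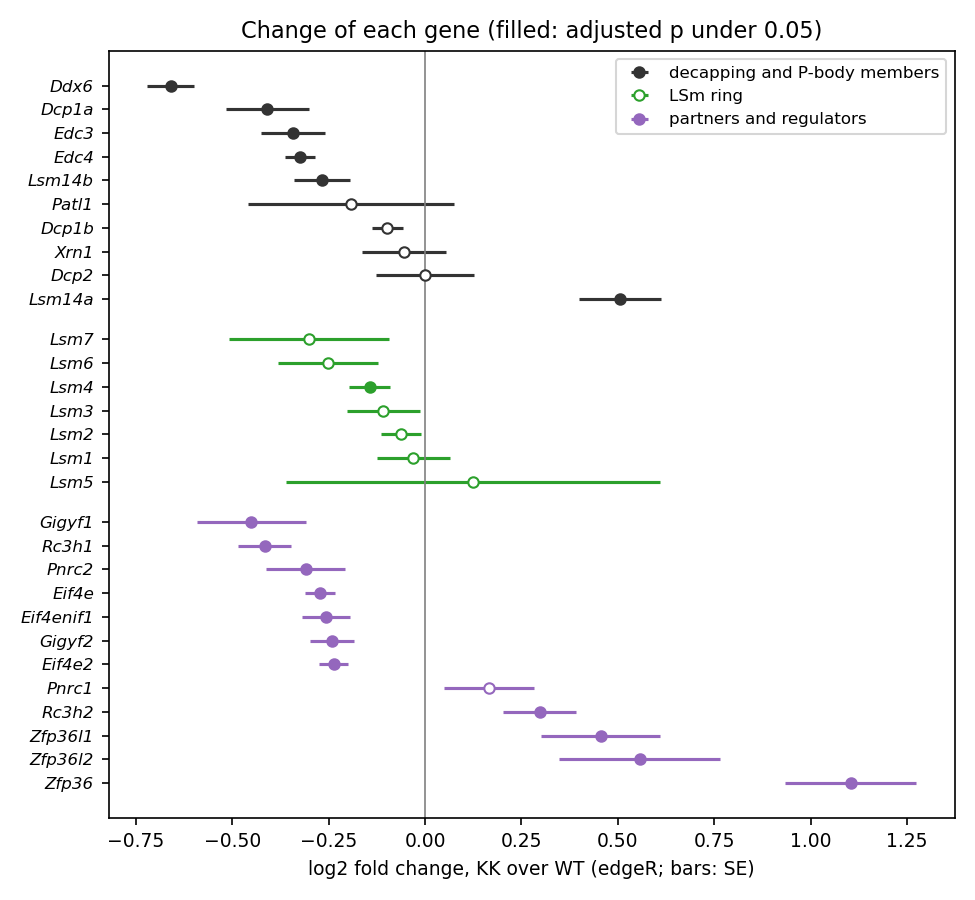
Log2 fold change of KK over WT from edgeR with its standard error, for the 10 members (black), the LSm ring (green) and the partners and regulators of decapping (purple); filled points passed an adjusted p of 0.05. Ddx6 lies lowest at -0.66 and Lsm14a highest among the members at 0.51, while the genes of the LSm ring lie between -0.30 and 0.13.

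Although the level of Xrn1 did not pass the test, the isoforms to which its reads were assigned differed between genotypes. The long isoform Xrn1-202 (10256 bases) took 73.6% and 79.6% of the Xrn1 transcripts in WT and 46.2% and 43.0% in KK. The short isoform Xrn1-201 (5499 bases) took 19.1% and 12.6% in WT and 51.5% and 46.7% in KK. The genotypes did not overlap for either isoform, and the long one was the leading isoform in both WT libraries but in neither KK library. In estimated counts Xrn1-201 went from 37.6 and 21.4 to 114.8 and 106.8, and Xrn1-202 from 278 and 259 to 197 and 189. The isoform shares were described without a test, since they rest on estimated assignments in 2 libraries per genotype. Xrn1 also shares 184 exonic bases with Gm16794 and 604 with C78334, both on the opposite strand, where reads cannot be told apart. C78334 was given 0 TPM in each library. Gm16794 stood at 1.23 and 0.97 TPM in WT and 0.13 and 0.59 TPM in KK, beside a WT mean of 2.49 TPM for Xrn1, with a log2 fold change of -1.34 that did not pass (edgeR adjusted p of 0.0636); its part in the Xrn1 values was not tested.

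The annotation places the Xrn1 isoforms at chr9:95954760-96053027 (Xrn1-201) and chr9:95954767-96057803 (Xrn1-202), each with 42 exons. They differ chiefly in the 3′ untranslated region, which has 221 bases in Xrn1-201 and 4997 bases in Xrn1-202. Their coding sequences, of 5169 and 5157 bases, differ by 12 bases at the end of exon 37, which ends at position 96039856 in Xrn1-201 and at 96039844 in Xrn1-202. The joint between exons 37 and 38 is shown because it is the coding difference between the isoforms that moved. Each line gives 20 shared bases on either side, 5′ to 3′, from the GENCODE M21 transcripts, with the extra bases of Xrn1-201 in capitals:
Xrn1-201: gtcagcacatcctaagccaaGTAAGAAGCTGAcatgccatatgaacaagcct
Xrn1-202: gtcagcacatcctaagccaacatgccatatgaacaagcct

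Files of estimated counts do not show how many reads fell on this joint and how many in the 3′ untranslated region, so whether the joint or the untranslated region moved the estimates was not tested. Shifts of this size were uncommon. Among 7805 tested genes with at least 2 isoforms at a mean of 10 or more expected counts, the largest isoform changed by at least 25 percentage points without overlap in 4.68%; this threshold was chosen after the Xrn1 values were seen. Non-overlap alone was common, at 40.8% of 24871 isoforms. Among the members 8 of 26 isoforms did not overlap, a share below that of all genes.

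**Figure D3:**
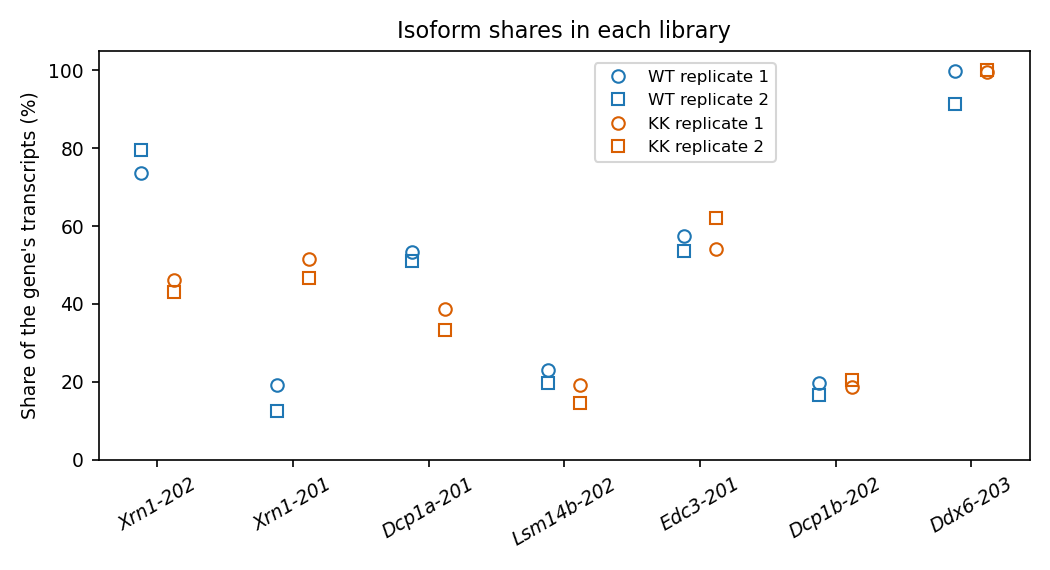
Share of a gene's transcripts, in percent, assigned to selected isoforms of 6 members in each library (WT blue, KK orange, circles replicate 1, squares replicate 2). Xrn1-202 and Xrn1-201 exchange places between the genotypes, Dcp1a-201 is lower in KK, and Edc3-201, Dcp1b-202 and Ddx6-203 overlap.

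The other isoform differences without overlap were smaller. Dcp1a-201, the coding isoform with a 3′ untranslated region of 3760 bases, took 53.4% and 50.9% of Dcp1a in WT and 38.6% and 33.2% in KK, or 4.13 and 4.69 TPM against 2.85 and 2.36 TPM. Dcp1a-209, annotated as a target of nonsense-mediated decay and given a spliced 3′ untranslated region of 1378 bases, took 0.00% and 3.89% in WT and 16.6% and 7.67% in KK. These shares rest on few expected counts, 0.0 and 15.1 in WT and 55.8 and 22.6 in KK. Assignments within Dcp1a also varied between the KK replicates, at 18.7% and 0.0% for Dcp1a-214 and 0.0% and 25.9% for Dcp1a-216. Lsm14b-202, which starts at position 180026398 inside the gene and has a coding sequence of 915 bases against 1155 in Lsm14b-201, took 23.0% and 19.8% in WT and 19.2% and 14.6% in KK. The remaining isoforms without overlap were Lsm14b-201, higher in KK by 4.22 percentage points, and Lsm14a-206 and Edc4-206, lower by means of 7.83 and 0.92 percentage points. Dcp1b also has isoforms with a short and a long 3′ untranslated region, of 108 and 1539 bases, and there the long isoform overlapped, at 19.8% and 16.6% in WT and 18.8% and 20.5% in KK. The Edc3 isoform annotated as a target of nonsense-mediated decay, Edc3-202, took 42.6% and 46.5% in WT and 46.0% and 38.1% in KK, with overlap.

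In 3 of the 8 members with at least 2 such isoforms (Dcp1a, Lsm14b and Xrn1) the longer of the leading pair had a lower share in KK without overlap, and in 0 a higher one. The pair of Lsm14b hardly differs in length, at 2534 and 2566 bases, against 5576 and 1759 for Dcp1a and 10256 and 5499 for Xrn1. Over 7775 genes the longer isoform had a lower share in 25.0% and a higher share in 17.0%.

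Length also moved with the change at the level of genes. With all tested genes ordered by length into 5 bins of equal size, 7.45% of the shortest genes and 34.1% of the longest were called lower in KK, and the median log2 fold change went from 0.13 to -0.11. The members were long: 6 of the 10 (Dcp2, Ddx6, Edc3, Edc4, Patl1 and Xrn1) fell in the longest bin, and 0 in the 2 shortest. With an offset for the length trend the same numbers of members passed, 5 lower and 1 higher, and the log2 fold change of Ddx6 was -0.52, that of Edc4 -0.24 and that of Edc3 -0.22, the last reduced from -0.34. Dcp2 and Xrn1, the longest members at a mean of 7898 and 8248 bases, had log2 fold changes of 0.17 and 0.11 with this offset and did not pass.

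**Figure D4:**
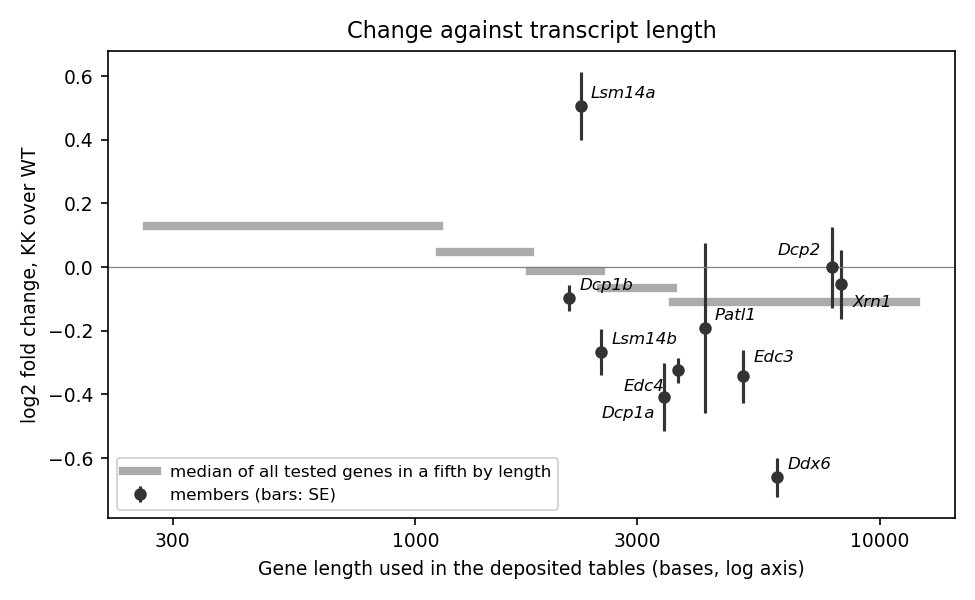
Log2 fold change of each member (points, bars SE) against the length used in the deposited tables on a log axis. Grey bars give the median of all tested genes in 5 bins of equal size. The last bar is cut off beyond the longest member, and its bin continues to longer genes. The medians go from 0.13 in the shortest bin to -0.11 in the longest, and Ddx6, Edc3, Edc4, Dcp1a and Lsm14b lie below the median of their bin, as do Patl1 and Dcp1b, which were not called, while Dcp2, Xrn1 and Lsm14a lie above it.

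The genes around the members were taken from lists of the LSm ring, of partners and regulators, and of other enzymes of the cap and the 5′ end. The LSm1 to LSm7 ring, which binds shortened tails and works with PATL1, had 1 of 7 genes called lower (Lsm4) and 0 higher, beside 21.7% and 22.0% of all genes tested, with a median log2 fold change of -0.11. Lsm4 stood at 269 and 233 TPM in WT and at 229.8 and 229.5 TPM in KK (log2 fold change -0.14 ± 0.05 SE, edgeR adjusted p of 0.0277), and lost its call in 5 of 14 alternatives. With the length trend offset 4 of the 7 fell.

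Of the 13 partners and regulators 12 could be tested. In counts 7 were called lower and 4 higher, beside 21.7% and 22.0% of all genes tested, and their median log2 fold change was -0.24. These numbers depended on the scale: with the effective length offset 2 were called lower and 2 higher, and with limma on log2(TPM + 1) 0 and 1. Eif4enif1 and Rc3h1, counted among the lower, and Zfp36l1, counted among the higher, took the opposite sign with both. Eif4e, the main cap-binding translation factor gene, went from 190 and 179 to 168 and 154 TPM (log2 fold change -0.27 ± 0.04 SE, edgeR adjusted p of 1.63e-06). Eif4e2, which encodes a cap-binding homologue linked to repression, went from 195 and 192 to 182 and 175 TPM (log2 fold change -0.24 ± 0.04 SE, edgeR adjusted p of 6.67e-06). Both lost the call under limma on log2(TPM + 1), Eif4e at a log2 fold change of -0.19 (adjusted p of 0.0709) and Eif4e2 at -0.12 (0.0969). With the effective length offset both passed, at -0.21 for Eif4e and -0.14 for Eif4e2. The largest rise was in Zfp36, the gene of tristetraprolin, which brings decay factors to AU-rich transcripts and is also an immediate early gene. It went from 2.63 and 2.28 to 5.11 and 5.10 TPM, 2.15-fold higher (log2 fold change 1.10 ± 0.17 SE, edgeR adjusted p of 4.81e-06), and was called in all 14 alternatives. Rc3h2, which encodes the RNA-binding protein roquin-2, rose from 3.77 and 3.42 to 4.99 and 5.44 TPM (log2 fold change 0.30 ± 0.10 SE, edgeR adjusted p of 0.0125), and lost its call in 4 of 14 alternatives; with the effective length offset the log2 fold change of Rc3h2 was 0.52.

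Of 10 other enzymes of the cap and the 5′ end, 9 could be tested, and in counts 1 was called lower and 1 higher, beside the same shares of all genes. Nudt3, of the Nudix hydrolase family to which DCP2 belongs, was lower in counts (138 to 117 CPM, edgeR adjusted p of 4.65e-05), but its TPM overlapped, at 104.5 and 118 in WT and 118 and 107 in KK, and its sign turned with limma on log2(TPM + 1). Xrn2, the nuclear relative of Xrn1, was higher in counts (44.2 to 51.7 CPM, edgeR adjusted p of 0.0158), with overlapping TPM of 36.3 and 18.2 against 33.8 and 30.2, and lost its call in 5 of 14 alternatives.

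**Figure D5:**
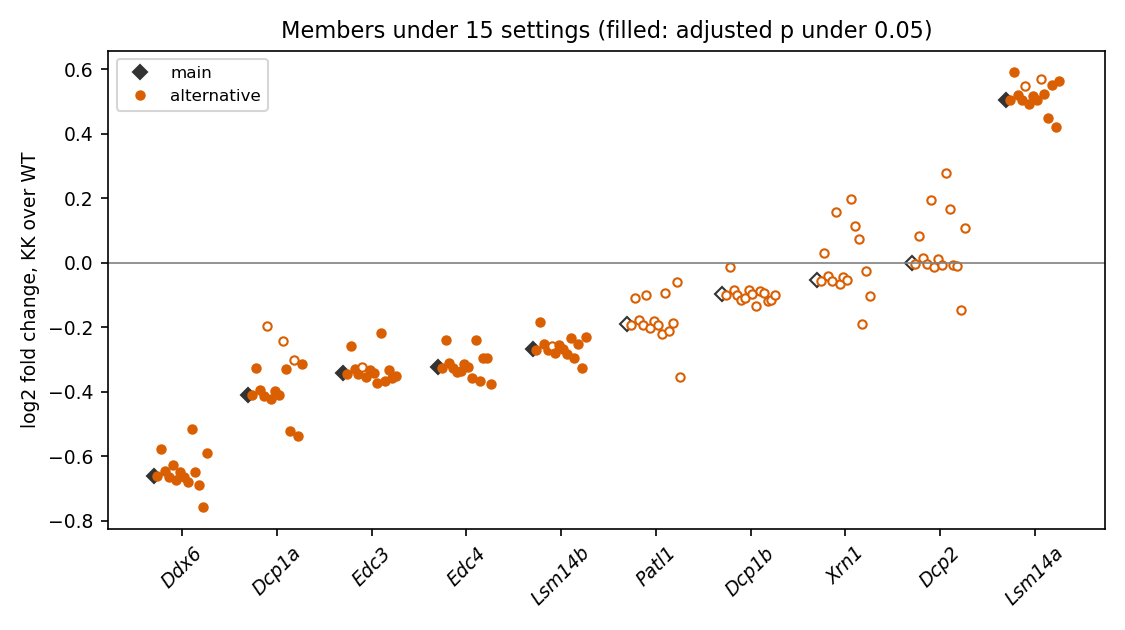
Log2 fold change of each member under the reported fit (black diamonds) and 14 alternative settings (orange circles); filled symbols passed an adjusted p of 0.05. Ddx6 and Edc4 stay filled throughout, Dcp1a, Edc3, Lsm14a and Lsm14b lose the call in 1 to 3 settings, and Dcp2 and Xrn1 lie on both sides of 0.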

How the data were processed

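Libraries were made from total RNA with an unstranded kit, per the labels' protocols. Bowtie, mm10 and GRCm38 are named in the submitters' processing notes, while neither the quantifier nor its annotation release is given in the sources used here. The deposited gene and isoform tables hold, per the file headers, expected counts and TPM (divided by effective length, with equal library totals). The isoform tables deposited by the authors also hold the percent of the gene's transcripts in each isoform. Gene and effective lengths were used as deposited.

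Names came from GENCODE M21, which held 55104 of 55364 gene identifiers. Expected counts were rounded and tested with edgeR 4.0.16 in R 4.3.3 (TMM factors, default expression filter, quasi-likelihood test on genotype, Benjamini-Hochberg adjustment at 0.05 over 16571 genes). A run on simulated counts changed far fewer genes than were called here, so it cannot show the error rates of this setting. Standard errors are the log2 fold change over the square root of F. CPM are on the TMM scale. Replicates of a genotype differed by more than sampling noise (chi-square per degree of freedom of 2.84 and 2.93). Alternatives used limma 3.58.1 on log2(TPM + 1), DESeq2 1.42.0, other scaling, filters and length offsets, a replicate block, and each library left out. The members and lists were chosen with earlier results of these data known. Named genes were the 10 members, Ddx4, and from each list up to 2 genes per direction with the smallest adjusted p. Clk3, Gm16794, C78334, Id4, Ptgds and the genes whose sign turned were named after their values were seen.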

Additional observations from a re-analysis of the deposited data

How the results depend on the processing

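Ddx6 and Edc4 kept their calls in all 14 alternatives. The members called, 5 lower and 1 higher, kept these numbers in 8 of the 10 alternatives with all libraries: limma on log2(TPM + 1) called 2 and 0, and the effective length offset 4 and 0. Leaving out a library gave 4 to 5 lower and 1 higher.

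Over all genes, DESeq2 called 2405 higher, limma 2275 higher and 1551 lower, and the effective length offset 2379 and 2283, against 3648 and 3589. For the LSm ring, 0 fell with library size scaling, DESeq2, limma or the effective length offset, 4 with the length trend offset, and 0 to 2 with a library left out. Of the partners, DESeq2 called 1 higher, limma 1 higher and 0 lower, the effective length offset 2 and 2, and leaving out a library 2 to 3 higher. Of the cap and 5′ enzymes, DESeq2 called 0 higher, limma and the effective length offset 0 in either direction, and leaving out a library 0 to 1 higher and 1 to 2 lower. Signs turned for Eif4enif1 (0.13 with limma, 0.15 with the effective length offset), Zfp36l1 (-0.42 and -0.62), Rc3h1 (0.027 and 0.015) and, with limma alone, Nudt3 (0.012). The cause of these changes was not tested.

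Requiring 30 expected counts left 5 isoforms without overlap in place of 8, among fewer isoforms. The log2 ratio of Dcp1b to Dcp1a differed by 0.31 in counts, where the genotypes did not overlap, against 0.10 in TPM. Same-numbered libraries share only a number (r = -0.08 of their deviations across genes). A replicate block called 3675 genes higher and 3634 lower, and 2 cap and 5′ enzymes lower in place of 1. The depth leaves Patl1 and Lsm5 loosely bounded.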
